A study of Mus musculus with 6 samples.

Results

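The transcripts described here lie inside Tcf7l2 and Cdkal1, a pair of mouse genes whose human counterparts are linked to the risk of type 2 diabetes. Of the 3093 long non-coding RNA (lncRNA) transcripts in the deposited table, 10 were chosen because their interval overlaps the GENCODE M21 body of one of these genes more than that of any other gene. Of these 10, 5 lay in Tcf7l2 and 5 in Cdkal1. The rule used position alone and not the measured values.

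The islets, the clusters of endocrine cells of the pancreas, came from C57BL/6 mice. The HFD group had 3 libraries of total RNA taken after 8 weeks on what the labels call a high-fed diet. The NCD group had 3 libraries taken after 8 weeks on normal chow. The labels name no transgene or other allele, age or sex, and the db/db mice of the series title were not analysed here. Each diet is represented by 1 FPKM value per transcript (fragments scaled to the length of the transcript and to the total of mapped fragments). No value per library was at hand, so the spread between mice is unknown and no difference between diets was tested.

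TCF7L2 is a DNA-binding partner of beta-catenin and carries the output of the canonical Wnt pathway to its target genes. Without beta-catenin it works with Groucho/TLE corepressors, and in the islet it is known for a part in beta cell survival and insulin secretion. The human gene carries common intronic variants that rank among the strongest shared risk factors for type 2 diabetes. CDKAL1 is a methylthiotransferase that modifies an adenosine next to the anticodon of the lysine tRNA, and in mice its loss from beta cells impairs the accuracy of proinsulin translation. The risk variants at this gene are also intronic.

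In GRCm38, Tcf7l2 (ENSMUSG00000024985.19) occupies chr19:55741820-55933654 on the plus strand, a body of 192 kb with 22 annotated transcripts. Cdkal1 (ENSMUSG00000006191.17) occupies chr13:29191746-29855674 on the minus strand, a body of 664 kb with 11 annotated transcripts. RefSeq (GRCm38.p6) gives Tcf7l2 a first start and an internal start 153.5 kb downstream, and gives Cdkal1 a single start. The 300-base windows at these starts are shown because the intervals are placed relative to them: all 5 Tcf7l2 intervals lie downstream of the first start, only 1 lies downstream of the internal start, and all 5 Cdkal1 intervals lie downstream of its start. Each window runs from 250 bases before the start to 50 after it, 5′ to 3′ on the strand of the gene. Capitals mark matches, on either strand, to the GC box GGGCGG, to the TATA box TATAAA or to the TCF/LEF core written as CTTTG followed by a pair of bases that are each A or T.
Tcf7l2 first start, chr19:55741560-55741859, plus strand: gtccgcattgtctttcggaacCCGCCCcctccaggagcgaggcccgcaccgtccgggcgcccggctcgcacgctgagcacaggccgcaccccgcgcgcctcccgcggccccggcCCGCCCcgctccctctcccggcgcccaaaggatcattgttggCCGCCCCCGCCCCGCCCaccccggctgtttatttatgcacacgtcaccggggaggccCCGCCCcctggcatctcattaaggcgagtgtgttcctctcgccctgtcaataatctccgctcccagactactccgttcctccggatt
Tcf7l2 internal start, chr19:55895071-55895370, plus strand: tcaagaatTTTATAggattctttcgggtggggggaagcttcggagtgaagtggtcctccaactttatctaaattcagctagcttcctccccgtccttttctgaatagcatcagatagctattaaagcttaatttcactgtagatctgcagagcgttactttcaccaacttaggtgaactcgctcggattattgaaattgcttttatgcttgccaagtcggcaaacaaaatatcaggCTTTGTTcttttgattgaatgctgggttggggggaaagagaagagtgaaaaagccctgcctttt
Cdkal1 start, chr13:29855624-29855923, minus strand: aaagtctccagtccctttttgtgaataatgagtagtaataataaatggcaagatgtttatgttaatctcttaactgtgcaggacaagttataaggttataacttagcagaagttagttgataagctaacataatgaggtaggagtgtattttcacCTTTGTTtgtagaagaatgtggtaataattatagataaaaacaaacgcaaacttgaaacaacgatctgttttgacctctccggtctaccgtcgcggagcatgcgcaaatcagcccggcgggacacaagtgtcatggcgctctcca

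The first Tcf7l2 window held 6 GC boxes, of which neighbouring ones can share a base, and had a G+C content of 70%. The internal Tcf7l2 window held 1 TATA box and 1 TCF/LEF core and had a G+C content of 42%. The Cdkal1 window held 1 TCF/LEF core and had a G+C content of 39%. Of all 32841 such windows, 35.7% held a GC box, 13.6% a TATA box and 16.9% a TCF/LEF core, and the median G+C content was 52.7%. A match describes the letters only.

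All 10 intervals lay wholly within introns and touched no annotated exon of any gene. They were numbered A to E within each gene in the direction of transcription. Tcf7l2-A (TCONS_00052394, chr19:55747166-55748676) and Tcf7l2-B (TCONS_00052396, chr19:55783715-55784308) lay in intron 3 of the transcript that the annotation marks as principal. Tcf7l2-C (TCONS_00052400, chr19:55871109-55872147) and Tcf7l2-D (TCONS_00052401, chr19:55876766-55877543) lay in intron 4, the longest of the 12 introns at 90.6 kb. Tcf7l2-E (TCONS_00052408, chr19:55928454-55928853) lay in intron 12, the last, and was only 0.700 kb from the exon upstream of it. The other 9 intervals lay between 3.25 and 28.6 kb from the nearest upstream exon.

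In Cdkal1 each interval lay in a different intron of the principal transcript. Cdkal1-A (TCONS_00029903, chr13:29826658-29826985) lay in intron 4 and Cdkal1-B (TCONS_00029898, chr13:29687697-29687932) in intron 8. Cdkal1-C (TCONS_00029897, chr13:29548667-29548983) lay in intron 10 and Cdkal1-D (TCONS_00029894, chr13:29499105-29499580) in intron 11. Cdkal1-E (TCONS_00029891, chr13:29420993-29421250) lay in intron 13, the longest of the 15 introns at 86.4 kb. The intervals of Cdkal1 were shorter than those of Tcf7l2, with a median span of 317 bases in Cdkal1 and 778 bases in Tcf7l2.

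The table states no strand, so the order of its locus numbers was compared with the strand of the genes. Along these numbers the interval positions ran through 21 of the 22 chromosomes in a first and a second pass, and the remaining chromosome held 1 transcript. For intervals in introns of protein-coding genes the pass went with the strand of the gene, first for plus and second for minus, in 1716 of 1822 cases (94.2%). For intervals over exons of coding genes it did so in 131 of 302 (43.4%). All 5 Tcf7l2 intervals were numbered in the first pass and all 5 Cdkal1 intervals in the second. All 10 thus had the pass most often seen for intronic intervals of genes on the same strand as theirs. The strand of the intervals themselves was not measured. Unspliced RNA of these genes and separate lncRNAs on the same strand cannot be told apart in this table.

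The question put by the diets is how these RNAs differ between islets after the high-fed diet and after chow. All 5 transcripts in Tcf7l2 were lower in HFD. Those in Cdkal1 were split, with 2 higher and 3 lower. Of all 3093 transcripts, 20% were higher and 80% lower. Ratios are on the log2 scale, HFD over NCD, with 0.1 FPKM added to both, which makes those of low transcripts smaller. A transcript was called where it differed at least 2-fold. Most of the table was shifted downwards, with a median log2 ratio of -0.82 over all transcripts and -0.98 over the 2054 intronic ones. The shift was uneven. Medians were -0.41 over exons of coding genes, -0.44 over non-coding exons, -0.47 within 5 kb of a gene and -0.30 farther away. Each ratio is to be read against the medians of all and of intronic transcripts. In bulk islet RNA, fewer cells of a type and less RNA per cell cannot be told apart.

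Tcf7l2-B, in the middle of intron 3, had the largest difference of the Tcf7l2 group, at 0.612 FPKM in HFD and 2.94 FPKM in NCD. Its log2 ratio was -2.09, which is 1 of the 2 calls in the gene and lies at the 12.3th percentile of intronic transcripts. Tcf7l2-D, in intron 4, was the other call, at 0.892 FPKM in HFD and 2.39 FPKM in NCD (log2 ratio -1.33). That call is lost after median centring (-0.51), after quantile normalization (-0.51) and with a pseudocount of 1 (-0.84). The HFD values of Tcf7l2-B and Tcf7l2-D lay in the lower part of the table, at the 15.8th and 26.5th percentiles of all HFD values, whereas the NCD values lay near the middle, at the 59.1th and 46.3th.

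Tcf7l2-C, 4.62 kb upstream of Tcf7l2-D in the same intron, was at 1.24 FPKM in HFD and 2.54 FPKM in NCD, a log2 ratio of -0.97. Tcf7l2-E, at the 3′ end of the gene and the only interval downstream of the internal start, was the most abundant of the group, at 2.52 FPKM in HFD and 4.90 FPKM in NCD (log2 ratio -0.93). Tcf7l2-A, at 5.35 kb from the gene start, was at 1.17 FPKM in HFD and 2.04 FPKM in NCD (log2 ratio -0.75). These ratios lay within 0.23 of the intronic median, and none passed the 2-fold rule as reported, although Tcf7l2-C did with a pseudocount of 0.01 (-1.02). The intervals of intron 3 differed from each other by 1.35 log2 units and those of intron 4 by 0.36, with no replicate error to set beside these differences.

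Over the 5 different transcripts of the gene, HFD values ran from 0.612 to 2.52 FPKM and NCD values from 2.04 to 4.90 FPKM. These ranges run over transcripts and not replicates, and within each transcript the HFD value was the lower. The 5 transcripts summed to 6.44 FPKM in HFD and 14.8 FPKM in NCD. The median log2 ratio was -0.97. The share of transcripts at least 2-fold lower was 2 of 5, where it was 41.9% over all transcripts and 48.8% over intronic ones. None of the 5 was at least 2-fold higher, where 6.27% of all transcripts and 4.43% of intronic ones were. Of single intronic transcripts 86.5% were lower in HFD, and every transcript was lower in 44 of the 72 genes holding at least 5.

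**Figure D1:**
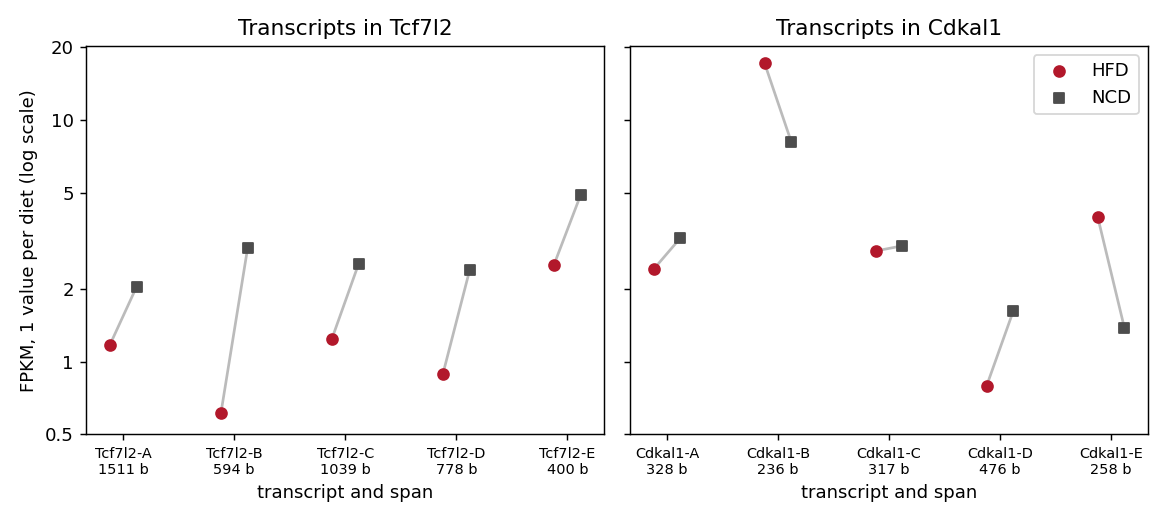
FPKM (log scale) of each transcript in Tcf7l2 and Cdkal1, with the HFD value as a circle left of the NCD value as a square, 1 value per diet and no error available. All 5 Tcf7l2 transcripts sit lower in HFD, while Cdkal1-B and Cdkal1-E sit higher.

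Cdkal1-B, in intron 8, had the highest FPKM of the 10 transcripts in both diets, at 17.1 FPKM in HFD and 8.10 FPKM in NCD. Its HFD value stood at the 98.6th percentile of the table and its NCD value at the 91.3th. These percentiles do not take its short span of 236 bases into account. The 154 intronic transcripts under 300 bases had median values of 3.09 FPKM in HFD and 7.56 FPKM in NCD. Over all intronic transcripts the medians were 1.40 FPKM in HFD and 2.81 FPKM in NCD. The log2 ratio of Cdkal1-B was 1.07, which passes the 2-fold rule narrowly and is 0.99 with a pseudocount of 1. Cdkal1-E, in intron 13, was at 3.95 FPKM in HFD and 1.38 FPKM in NCD, a log2 ratio of 1.46. It stood at the 89.8th percentile of HFD values and the 20.1th of NCD values, and its span was also short, at 258 bases.

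Cdkal1-C, in intron 10, was at 2.87 FPKM in HFD and 3.01 FPKM in NCD, nearly level, with a log2 ratio of -0.07. Cdkal1-A, in intron 4, was at 2.41 FPKM in HFD and 3.24 FPKM in NCD (log2 ratio -0.41). Cdkal1-D, in intron 11, was the only member of the group near the intronic median, at 0.796 FPKM in HFD and 1.62 FPKM in NCD (log2 ratio -0.94). The higher transcripts were not neighbours: Cdkal1-B lay between A and C, and Cdkal1-E lay 77.9 kb downstream of Cdkal1-D, whose ratio differed from it by 2.40 log2 units. Relative to the median of all transcripts, Cdkal1-A to Cdkal1-E stood at 0.41, 1.89, 0.75, -0.12 and 2.27, so 4 of 5 lay above it, whereas 1 of 5 did in Tcf7l2 (Tcf7l2-A at 0.07). The Tcf7l2 count depends on the reference. Relative to the intronic median, Tcf7l2-A to Tcf7l2-E stood at 0.23, -1.12, 0.006, -0.35 and 0.046. Cdkal1-A to Cdkal1-E stood at 0.56, 2.05, 0.91, 0.034 and 2.43 on that scale.

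Across the 5 Cdkal1 transcripts, HFD values ran from 0.796 to 17.1 FPKM and NCD values from 1.38 to 8.10 FPKM. These are again ranges over different transcripts and not over replicates. The sums were 27.1 FPKM in HFD and 17.4 FPKM in NCD. Without Cdkal1-B they were 10.02 FPKM in HFD and 9.25 FPKM in NCD. The median log2 ratio was -0.07, and it took either sign when single transcripts were left out, between -0.24 and 0.50. Of the 5, 2 were at least 2-fold higher and 0 at least 2-fold lower, beside 6.27% and 41.9% of all transcripts.

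**Figure D2:**
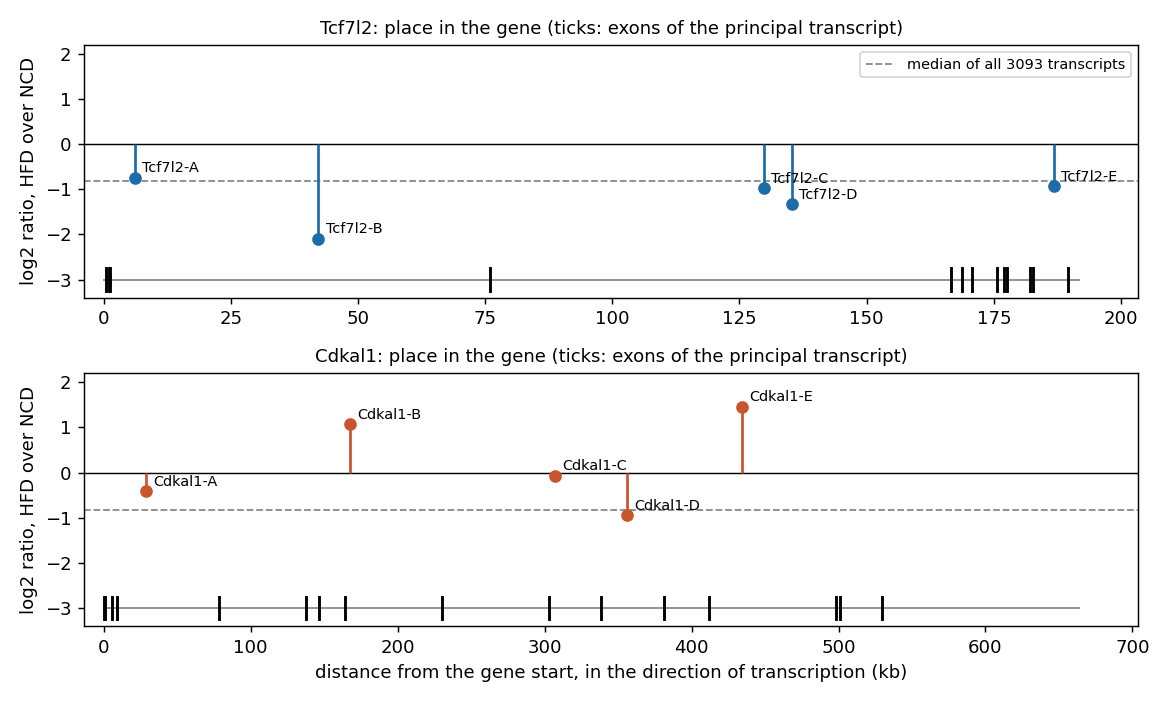
Log2 ratio of HFD over NCD for each transcript (points) against its distance from the gene start in kb, in the direction of transcription, for Tcf7l2 (top) and Cdkal1 (bottom). Black ticks mark where exons of the principal transcript begin and the dashed line is the median of all transcripts, -0.82. Tcf7l2 points are all below 0, and Cdkal1 points lie on both sides of it with no order along the gene.

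The higher Cdkal1 transcripts were also the shortest of the 10. Cdkal1-B spanned 236 bases and Cdkal1-E 258, less than the mean fragment length of 281 bases in HFD and 289 bases in NCD that was fitted to the table's low values. In intervals this short the ratios of the whole table were widely spread. Among the 154 intronic transcripts under 300 bases, 21.4% were at least 2-fold higher in HFD and 50.6% at least 2-fold lower, and the quartiles of the log2 ratios were -3.50 and 0.51. Among the 660 intronic transcripts of 1000 bases or more, 1.21% were at least 2-fold higher, and the quartiles were -1.17 and -0.50.

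Set against intronic intervals within 10% of its span, itself included, Cdkal1-B was exceeded in log2 ratio by 12 of 55. Cdkal1-E was exceeded by 14 of 85. On the same footing Tcf7l2-B lay below most of its peers, with 167 of 188 above it, and Tcf7l2-D had 97 of 130 above it. The remaining Tcf7l2 transcripts and Cdkal1-D lay between the 48.0th and 68.8th percentiles of intervals of their span, and Cdkal1-A and Cdkal1-C at the 67.9th and 77.4th. Whether the short span has a part in the higher Cdkal1 values was not tested.

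**Figure D3:**
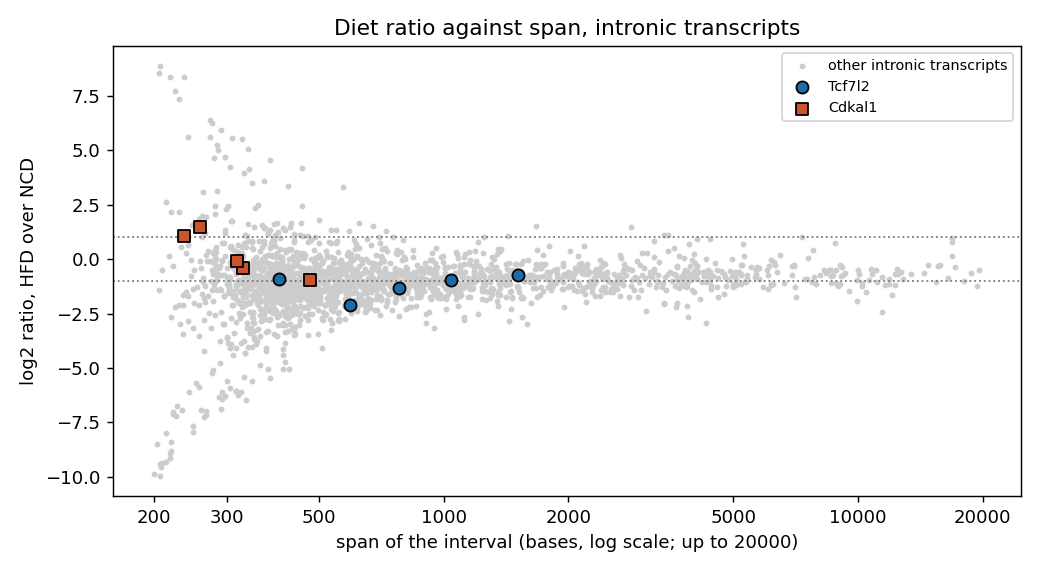
Log2 ratio of HFD over NCD against the span of the interval in bases (log scale, up to 20000) for intronic transcripts in grey, Tcf7l2 as circles and Cdkal1 as squares; dotted lines mark 2-fold. The cloud widens below 300 bases, where Cdkal1-B (236 bases) and Cdkal1-E (258 bases) lie.

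For intervals of at least 400 bases the number of fragments behind a value could be estimated, under the assumptions of an unspliced transcript and of each column counted from 1 pool. The totals fitted to whole-fragment steps were 77.2 in HFD and 63 in NCD, in units of 1e6 fragments. In a separate fit on a random part of the transcripts, which gave totals of 77.5 in HFD and 64.5 in NCD, 74 of 74 low HFD values kept out of it came within 0.15 of a whole fragment but only 25 of 41 low NCD values, where 30% would by chance, so the NCD estimates are the less certain. Tcf7l2-B rested on about 14.8 fragments in HFD and 56.6 in NCD, and Tcf7l2-D on 34.3 in HFD and 73.8 in NCD. The 95% exact binomial interval on the log2 ratio of scaled fragments, which covers counting error only, was -3.18 to -1.42 for Tcf7l2-B and -2.07 to -0.84 for Tcf7l2-D. Of the Tcf7l2 intervals, that of Tcf7l2-B alone excluded the intronic median of -0.98. That median includes the pseudocount, which the binomial intervals do not. With a pseudocount of 0.01 it was -1.02, again outside the interval of Tcf7l2-B alone. As only counting error is covered, this is not a test between diets.

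The deepest value was that of Tcf7l2-A, with about 111 fragments in HFD and 157 in NCD and an interval of -1.17 to -0.44. Tcf7l2-C had 73.0 fragments in HFD and 120 in NCD (interval -1.47 to -0.59). Tcf7l2-E had 23.4 in HFD and 34.5 in NCD (-1.83 to -0.20). Cdkal1-D rested on 12.1 fragments in HFD and 19.2 in NCD, and its interval of -2.19 to 0.10 included 0, so its direction is not resolved at this depth. No such estimate was made for the other Cdkal1 transcripts, which are shorter.

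Compared with other genes, Tcf7l2 was near the middle and Cdkal1 near the top. Among the 72 genes holding at least 5 transcripts, Cdkal1 had the 5th highest median log2 ratio and Tcf7l2 the 30th. The median of the gene medians was -1.05. These ranks are not matched for span. The Cdkal1 transcripts had a median span of 317 bases, and the only one of at least 400 bases, Cdkal1-D, was at -0.94. The ratios spread over 2.40 log2 units in Cdkal1 and 1.35 in Tcf7l2. Of the 18 genes with exactly 5 transcripts, 5 had a wider range than Cdkal1 and 10 a wider range than Tcf7l2. In 44 of the 72 genes every transcript was lower, as in Tcf7l2, and 3 had at least 2 transcripts that were 2-fold higher, Cdkal1 among them. Close to Tcf7l2 over the 2 columns, by the median alone, was the phosphatase gene Ppm1h (median -0.99, 5 transcripts). Closest to Cdkal1, also by the median alone, were Kcnip4 and Arhgap6. Kcnip4 encodes a potassium channel-interacting protein (0.08, 11 transcripts) and Arhgap6 a GTPase-activating protein (0.14, 5 transcripts). The spreads differed. Ratios ran from -7.03 to -0.90 in Ppm1h, from -0.84 to 0.94 in Kcnip4 and from -2.98 to 5.51 in Arhgap6. In Ppm1h 1 transcript was listed at 0 FPKM in HFD, and in Arhgap6 1 at 0 FPKM in NCD.

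**Figure D4:**
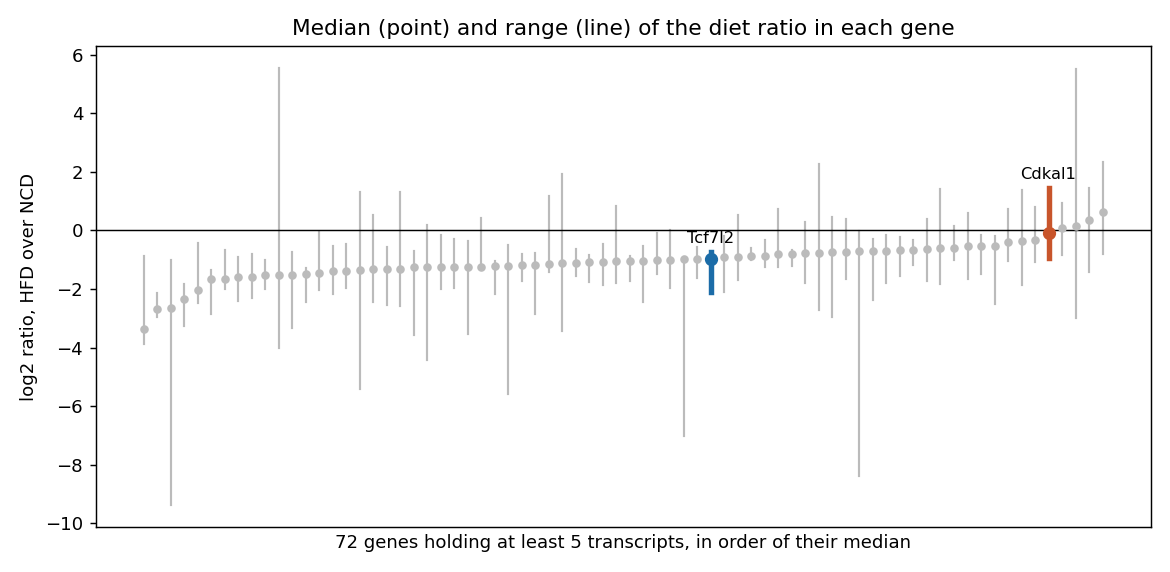
Median (point) and range (line) of the log2 ratio of HFD over NCD in each of the 72 genes with at least 5 transcripts, ordered by median. Genes are not matched for span. Tcf7l2, in blue, has a median of -0.97 near the centre of the order, and Cdkal1, in orange, has a median of -0.07 as the 5th highest, with a line that crosses 0.

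The wider pathways of both genes were read from lists that leave Tcf7l2 and Cdkal1 out. In the Wnt and TCF list, 6 of 57 genes held 9 transcripts, all lower in HFD and 5 at least 2-fold so, with a median log2 ratio of -1.01. The frizzled receptor gene Fzd3 held a transcript that overlapped an exon of a protein-coding gene, at 9.56 FPKM in HFD and 15.7 FPKM in NCD (log2 ratio -0.71). In an intron of Ror1, a receptor for non-canonical Wnt ligands, a transcript was at 2.41 FPKM in HFD and 4.79 FPKM in NCD (-0.96). The list's share of transcripts at least 2-fold lower, 55.6%, stands beside 41.9% of all transcripts and 48.8% of intronic ones. Being lower in HFD was common, at 80% of all transcripts and 86.5% of intronic ones.

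In the tRNA modification list, 7 of 60 genes held 9 transcripts, again all lower, 5 of them at least 2-fold, with a median of -1.18. Those 55.6% stand beside 41.9% of all and 48.8% of intronic transcripts, and 86.5% of intronic transcripts were lower. Elp4, a subunit gene of the Elongator complex that modifies wobble uridines, held an intronic transcript at 7.89 FPKM in HFD and 21.7 FPKM in NCD (-1.45). In Alkbh8, a tRNA methyltransferase gene, the more abundant transcript was at 1.77 FPKM in HFD and 6.07 FPKM in NCD (-1.72). No transcript of this list was higher in HFD, whereas 2 of 5 in Cdkal1 were. These transcripts also differ in span. The higher Cdkal1 transcripts spanned 236 and 258 bases, while the shortest of this list, in Nsun3, spanned 307. Among intronic transcripts under 300 bases, 31.2% were higher in HFD, beside 13.5% of all intronic ones. The contrast between Cdkal1 and this list was not tested.

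In the list of other genes at type 2 diabetes risk loci, 7 of 66 genes held 12 transcripts, of which 1 was higher and 11 lower, with 1 at least 2-fold higher (beside 6.27% of all transcripts) and 3 at least 2-fold lower (beside 41.9%). The median was -0.82, the same as over the table. Its most abundant transcripts lay in introns of Zmiz1, a transcriptional coregulator gene, at 7.09 FPKM in HFD and 11.8 FPKM in NCD (-0.73) and at 2.24 FPKM in HFD and 4.14 FPKM in NCD (-0.86). Of the genes that held a transcript, only Tle4, a Groucho/TLE corepressor gene, stood in both the Wnt and the risk list. The labelled tissue could not be checked in this table, since only 3 of 32 marker genes of islet and other pancreatic cell types held a transcript (Isl1 and Pax6 of the 9 beta cell markers, and the duct marker Epcam).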

How the data were processed

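Total RNA of islets from 3 HFD and 3 NCD libraries was sequenced after the Illumina TruSeq kit, per the labels' protocols. The deposited table holds 1 FPKM per diet and transcript, as named by the authors in the file headers. The pooling of libraries, aligner, assembler and quantifier were not given in the sources used here. GRCm38 and mm10 appear in the submitters' processing notes and are the build of the GENCODE M21 annotation used to place intervals.

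A pseudocount of 0.1 FPKM was added before log2 ratios, without a filter, and the 2-fold rule described size. Fragment totals were fitted in transcripts of 350 to 700 bases, to values below 8 fragments, after the fit was tested on simulated data. All values came from Python 3.11.15 with pandas 2.3.3, numpy 2.4.6 and scipy 1.17.1. The model across libraries could not be fitted to 1 value per diet. Every member transcript was described, and list genes were named by highest mean FPKM (2 per list); for the genes with the nearest medians, 1 is not reported here. Members, lists and rules were chosen with earlier results of these data known. Alternatives were other pseudocounts, scalings, filters, spans and fold rules.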

Additional observations from a re-analysis of the deposited data

How the results depend on the processing

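No paired analysis was possible because there is 1 value per diet, which also means that libraries could not be left out in turn. Spans of at least 400 bases for the counts, and other fold rules for the members, were chosen after the data were seen. Of 56 recomputed ratios of single transcripts, 44 kept their direction and their side of 2-fold and 6 reversed. The 44 include ratios that could not change. A filter of at least 1 FPKM in 1 of the diets, or on span, leaves the ratio of a kept transcript as it was. After median centring and after quantile normalization, Cdkal1-A was at 0.41 and 0.41, Cdkal1-C at 0.75 and 0.77, Tcf7l2-A at 0.071 and 0.079, the Cdkal1 median at 0.75 and 0.77 and the Tcf7l2 median at -0.15 and -0.17. Leaving out single transcripts put the Cdkal1 median between -0.24 and 0.50 and the Tcf7l2 median between -1.15 and -0.95; a pseudocount of 0.01 gave -1.02 for Tcf7l2. With spans of at least 400 bases Cdkal1 keeps 1 transcript, at -0.94. Members at least 2-fold higher numbered 2 as reported, 1 with a pseudocount of 1, and 0 with spans of at least 400 bases or a 4-fold rule. Members at least 2-fold lower numbered 2 as reported, 4 with a pseudocount of 0.01, 6 under a 1.5-fold rule, and 1 with a pseudocount of 1, median centring, quantile normalization or a 4-fold rule. In the table, 194 transcripts were higher as reported, and 101 with a pseudocount of 1, 493 when centred, 500 when quantile-normalized, 109 when shorter spans than 400 bases are left out, 325 under a 1.5-fold and 90 under a 4-fold rule. Those lower numbered 1297 as reported, 689 with a pseudocount of 1, 464 when centred, 461 when quantile-normalized and 365 under a 4-fold rule. The share of lower among all calls thus moves from 87.0% as reported to 48.5% after centring. Centring sets the table median to 0, so a more even split largely follows from the centring itself. The reversed ratios, of Cdkal1-A, Cdkal1-C and Tcf7l2-A, likewise lay between the table median of -0.82 and 0 as reported.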

Other observations

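The single transcript of the risk list that was higher in HFD was placed in Abcc8, the sulfonylurea receptor gene of the beta cell ATP-sensitive potassium channel. It overlapped an exon of a protein-coding gene. It spanned 7062 bases and was at 0.821 FPKM in HFD and 0.104 FPKM in NCD, a log2 ratio of 2.17. Tcf7l1, a paralog of Tcf7l2 known mainly as a repressor, held 3 intronic transcripts. They were at 0.569, 0.831 and 0.833 FPKM in HFD and at 1.88, 3.27 and 1.19 FPKM in NCD, with log2 ratios of -1.57, -1.85 and -0.47. Both genes were picked after their values were seen.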
